A study of Glycine max with 16 samples.

Results

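The binding sites of LEAFY COTYLEDON1 (LEC1) in soybean embryos were compared between the cotyledon stage (COT) and the mid-maturation stage (MM), the first and the last point of a developmental series. The sites are the peaks of 2 deposited ChIP-seq lists, both made with an antibody raised against recombinant GmLEC1. All 51845 COT peaks and 64146 MM peaks were used, 115991 of the 220697 peaks in the 4 lists of the series. A peak was taken as shared when it overlapped a peak of the other stage by at least 1 bp. An MM peak without a COT peak is named gained and a COT peak without an MM peak lost, which describes the lists and carries no statement about the protein. ChIP-seq sequences the DNA that an antibody precipitates with its target from fixed chromatin, and total chromatin (input) serves as its control.

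Embryos were of the cultivar Williams 82, grown in a greenhouse. The COT group was dissected from seeds 2.5 to 3.5 mm long and the MM group from seeds weighing 200 to 250 mg. Each stage had 2 ChIP and 2 input libraries. Tissue of all groups was fixed with 1% formaldehyde for 10 minutes. Chromatin was sheared to between 100 and 500 bp, 3 ug of antibody was added to each ChIP sample, and libraries were amplified for 15 PCR cycles. Lists from early maturation (EM, seeds 6 to 7 mm long), 1 with the anti-recombinant antibody and 1 with an antibody against a GmLEC1 peptide, were used as readouts that played no part in defining gained and lost sites.

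LEC1 is a B-type subunit of nuclear factor Y (NF-Y), a complex of an A, a B and a C subunit that binds DNA at CCAAT boxes. In Arabidopsis, where LEC1 was found through mutants with defective embryos, it is needed for cotyledon identity and for desiccation tolerance of the seed. It is known for acting through a large part of seed development, from the growth of the young embryo and its chloroplasts to the later filling of the seed with storage protein and oil, and for working beside the seed regulators ABI3 and bZIP67. COT embryos are still growing, whereas MM embryos are filling their storage cells.

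Each stage has 1 list, so the spread between replicates is unknown and no test of a stage difference was possible. Exact binomial 95% intervals are given for shares of peaks and cover counting error only, and the spread over the 20 chromosomes is a description. Stage, sequencing depth, calling threshold and experiment may all differ between the lists and cannot be told apart. The samples were whole embryos, so sites bound in more cells cannot be told apart from sites bound more strongly in each cell. Peak lists hold no marker of the tissue, and the label could not be checked against one. The score of a peak is the authors' own value, and it was used only to order peaks within 1 list: place 1 is the highest score, and a different place in another list does not show a change.

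Most COT sites were still present at MM, and many more MM sites had no COT counterpart than the reverse. Of the 64146 MM peaks, 23615 were gained (36.8%, 36.4 to 37.2). Of the 51845 COT peaks, 10868 were lost (21.0%, 20.6 to 21.3). The 2 lists merged into 74796 regions, of which 53.9% had peaks of both stages, 31.6% of MM alone and 14.5% of COT alone. The surplus of gained over lost sites follows from the greater length of the MM list. With the MM list cut to its 51845 highest-scoring peaks, 15628 MM peaks were gained (30.1%) and 15080 COT peaks lost (29.1%), as lists of equal length with peaks that pair 1 to 1 must give nearly equal numbers.

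Gained and lost sites were mostly narrow and low in score. The median gained MM peak measured 250 bp and the median shared one 400 bp, and 652 gained peaks (2.76%) were wider than 500 bp, against 22.8% of the shared ones. At COT the median lost peak measured 150 bp and the median shared one 300 bp. Lost peaks wider than 500 bp numbered 91 (0.837%), against 11.4% of the shared ones. The smallest width in the list, 100 bp, was that of 25.7% of lost and 6.07% of shared COT peaks. The median gained peak stood at 70.1% of the MM order by score and the median lost peak at 77.9% of the COT order.

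The share without a partner rose along the score order of both lists, which were cut into 10 equal steps (deciles), from 3.55% of the highest-scoring MM decile through 34.5% of the fifth decile to 67.8% of the lowest. In the COT list it rose from 6 of 5185 peaks (0.116%) in the highest decile through 13.6% in the fifth to 51.6% in the lowest. Cutting the MM list to equal length changed the balance within the order. Gained peaks then made up 2.93% of the highest decile and lost peaks 0.270%, 8.53 against 1.83% in the second decile, and 26.7 against 22.4% in the fifth. From the seventh decile on the order was the other way, with 39.6% gained against 42.2% lost, and it ended at 56.3 against 63.0% in the lowest decile. At equal length the unpaired MM peaks therefore sat higher in their list than the unpaired COT peaks did in theirs.

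**Figure D1:**
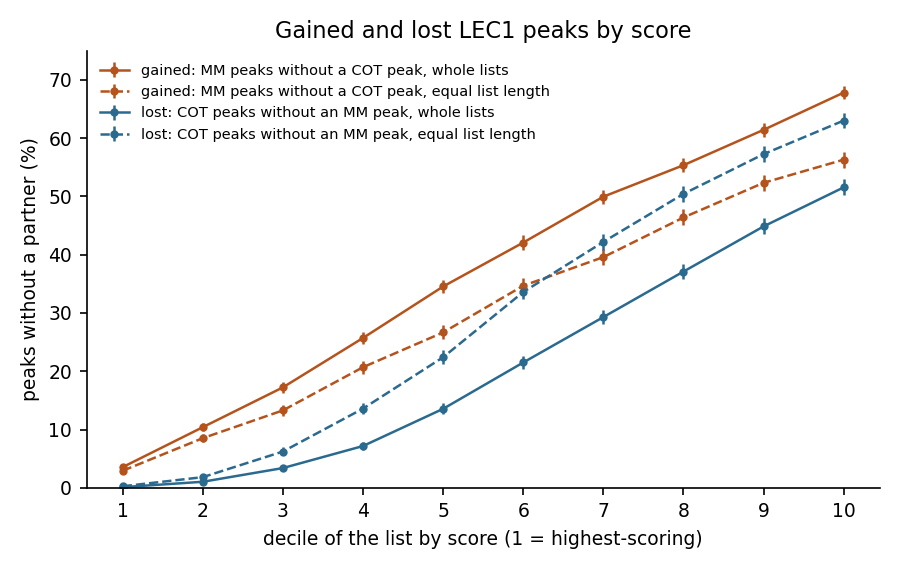
Share of peaks without a partner at the other stage (%, bars are exact binomial 95% intervals) in each decile of the MM list (gained) and of the COT list (lost), ordered by score, for whole lists (solid) and lists of equal length (dashed). The share rises from 3.55 to 67.8% for MM and from 0.116 to 51.6% for COT, and with equal lengths the lines cross between the sixth and the seventh decile.

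Counted in bases, new sites and the flanks of old ones both added to the MM list. MM peaks covered 23.0 Mb and COT peaks 15.95 Mb, with 12.6 Mb in both, which is 79.2% of the COT and 54.9% of the MM coverage. Of the 10.4 Mb covered at MM alone, 6.06 Mb (58.5%) lay in gained peaks and 4.30 Mb (41.5%) in the flanks of shared peaks. Of the 3.32 Mb covered at COT alone, 2.06 Mb lay in lost peaks and 1.26 Mb in flanks of shared ones. At equal list length the MM flanks held 4.17 Mb (46.2% of the coverage at MM alone), gained peaks 4.86 Mb and the COT flanks 0.886 Mb. The cut drops low-scoring, mostly narrow MM peaks, which favours a higher share in MM flanks.

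The 5 gained sites of highest MM score, named by their place alone, all had a peak in both EM lists. The first lay on chromosome 11 at positions 10486201 to 10486600, 400 bp wide in place 514 at MM. It had the same start and end at EM (place 1994) and a peptide peak of 200 bp in place 27987. Its nearest COT peak was 12700 bp away. The next, on chromosome 7 at 17420701 to 17421300, was 600 bp wide in place 540, with 450 bp at EM (place 3220), 550 bp with the peptide antibody (place 681) and 43200 bp to the nearest COT peak. The third site, 49016751 to 49017200 on chromosome 9, held place 929 at MM, 1640 at EM and 6372 in the peptide list. It lay 3100 bp from a shared COT peak of 150 bp. Both remaining sites were on chromosome 14. The first, 9504601 to 9505150, held place 1037 at MM and 18075 at EM, and lay 350 bp from a COT peak. The other, 4001601 to 4002200, held place 1050 at MM and 4037 at EM, 9550 bp from the nearest COT peak.

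A site without any EM peak stood high among the gained ones too. On chromosome 3 at 3196951 to 3197450, a gained MM peak of 500 bp was in place 1214 with no peak in the EM list, none in the peptide list and none at COT within 12650 bp. It is in 1 list of 4, and among the gained peaks without any EM peak it had the highest score.

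High-scoring COT peaks seldom lacked an MM peak. The counts that follow are from the whole lists, where the MM list is longer and covers more bases, which favours fewer lost than gained peaks. No COT peak of the first 1000 lacked an MM peak, 6 of the first 5000 did, and 56 of the first 10000, against 3, 139 and 548 gained among the same numbers of MM peaks. The lost peak of highest score lay on chromosome 19 at 42838101 to 42838700, 600 bp wide in place 2822. It was 450 bp wide at EM (place 33018) and 600 bp with the peptide antibody (place 24010), and the nearest MM peak was 1650 bp off. A second lost site on chromosome 19, at 42622301 to 42622700, was 400 bp wide in place 4023 at COT, and had an EM peak of 200 bp in place 48012 and a peptide peak of 350 bp. The lost peak on chromosome 7 at 35371151 to 35371450 (place 3484) was 150 bp wide at EM and absent from the peptide list. The one on chromosome 8 at 8778301 to 8778700 (place 4852) was 200 bp wide at EM and 400 bp with the peptide antibody. In these 4 sites the EM anti-recombinant peak was narrower than the COT peak. The sites were chosen for a high COT score and no MM peak, which favours a narrower peak in a further list. The remaining site of the first 5, on chromosome 1 at 53107501 to 53107950 (place 4137), had no peak in any other list, and 10050 bp separated it from the nearest at MM.

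Sites present at both stages were wider at MM. A total of 39454 COT peaks met exactly 1 MM peak that met no other COT peak. In these pairs 65.0% (64.5 to 65.4) were wider at MM by at least 1 bin of 50 bp, 20.7% (20.3 to 21.1) were narrower and 14.3% had the same width. The median width was 300 bp at COT and 400 bp at MM, and the change was 73.7 ± 139.1 bp (mean ± SD over pairs). Changes of 200 bp or more were outward in 7651 pairs (19.4%) and inward in 1145 (2.90%), and changes of 400 bp or more numbered 898 and 121. At equal list length 70.1% of 35352 pairs were wider and 16.1% narrower. That cut drops the lowest-scoring MM peaks, which were mostly narrow, and so favours wider pairs. It raised the median MM peak width from 350 to 400 bp.

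**Figure D2:**
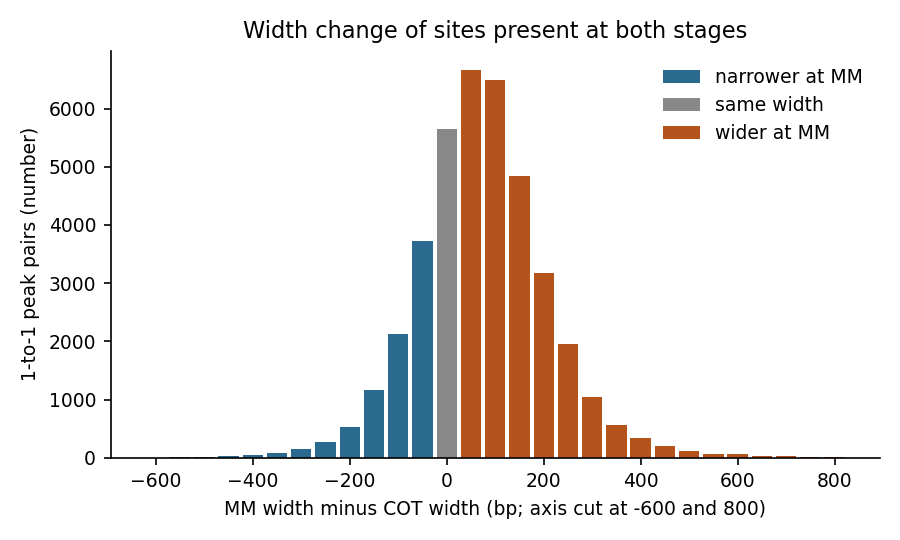
Number of 1-to-1 peak pairs (y axis) by MM width minus COT width in bp (x axis, bins of 50 bp), coloured by direction. The tallest bars are those at 50 and 100 bp wider, and 25632 pairs are wider at MM against 8168 that are narrower.

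Of the 25632 widened pairs, 56.3% had grown on both sides, 37.2% on 1 side with the other level, and 6.45% on 1 side with the other drawn in. Over all pairs, the MM peak reached beyond the COT peak on both sides in 36.6%, and on 1 side with the other level in 24.2%. The COT peak reached beyond the MM peak on both sides in 6.31%. Start and end were the same in 3142 pairs (7.96%), and 13.8% were shifted, each peak reaching beyond the other on 1 side. The start had moved outward in 55.9% of pairs and the end in 55.2%. Midpoints were a median of 25 bp apart.

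Widening was found along the whole range of widths. Sorted by the mean width of the pair, 47.5% were wider and 34.5% narrower between 100 and 200 bp, 67.3 against 19.2% between 300 and 400 bp, and 69.6 against 15.1% between 400 and 600 bp. Among the 162 pairs of 1000 bp or more, 60.5% were wider and 17.9% narrower. The trend along the score depended on the list that ordered the pairs. By the COT order the wider share was lowest in the third decile, at 56.85%, and highest in the lowest decile, at 89.2%. By the MM order it fell from 84.9% in the highest decile to 10.9% in the lowest, where 71.5% were narrower at MM.

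The EM lists did not enter the pairing. Over the 34139 pairs that met 1 anti-recombinant EM peak, mean widths were 351 bp at COT, 408.5 bp at EM and 430 bp at MM. Over the 32515 pairs that met 1 peptide peak they were 357, 396 and 437 bp. The widened and narrowed classes were sorted by the COT and MM widths, so a further list tends to fall between them, and their values are a description. Over the 22898 widened pairs that met 1 EM peak, the mean width was 323 bp at COT, 423.5 bp at EM and 470 bp at MM (values of 3 lists over the same sites). Over the 6451 narrowed pairs it was 424 bp at COT, 363 bp at EM and 318 bp at MM. The peptide antibody at EM gave the same order, with 329, 410 and 476 bp over widened and 431.5, 355 and 326 bp over narrowed pairs. The EM peak was wider than the COT peak in 76.6% of widened and 20.9% of narrowed pairs, and the peptide peak in 68.1 and 16.2%. Pairs of equal width, with a mean of 389 bp at both stages, had 398 bp at EM, where the peak was wider than at COT in 41.9% and narrower in 33.3%. The COT width served both to sort the pairs and as the base of these shares.

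The 5 pairs that widened most grew by 1000 to 1400 bp. On chromosome 11 a COT peak of 400 bp at 4280601 to 4281000 became an MM peak of 1800 bp at 4280101 to 4281900, 500 bp outward at the start and 900 bp at the end. The MM peak overlapped 2 EM peaks, the higher-scoring 1000 bp wide. On chromosome 3 a COT peak of 200 bp at 45027951 to 45028150 lay at the edge of an MM peak of 1500 bp. That MM peak ended at 45029450 and overlapped 2 EM and 3 peptide peaks. Peaks of 150 to 200 bp on chromosome 2 (MM 4008201 to 4009350), chromosome 13 (MM 44043301 to 44044500) and chromosome 20 (MM 34257851 to 34259000) became 1150 to 1200 bp wide. All of these MM peaks except the one on chromosome 20 overlapped 2 EM peaks. The single EM peak on chromosome 20 was 1250 bp wide.

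The 5 pairs that narrowed most lost 750 to 850 bp, and in each the MM peak met 1 EM peak that was narrower than the COT peak. The pairs were chosen for wide COT peaks over narrow MM ones, so a further list tends to be narrower than COT there. On chromosome 4 the COT peak at 3330451 to 3331700 was 1250 bp wide in place 1025. Its MM peak at 3330651 to 3331050 was 400 bp wide in place 27386, with 450 bp at EM and 600 bp with the peptide antibody. On chromosome 12 a COT peak of 1050 bp in place 3129, at 1267351 to 1268400, met an MM peak of 250 bp, an EM peak of 300 bp and a peptide peak of 650 bp. The others lay on chromosome 6 (COT 2284951 to 2285950), from 1000 to 150 bp, chromosome 19 (COT 50066651 to 50067750), from 1100 to 350 bp, and chromosome 18 (COT 51986601 to 51987550), from 950 to 200 bp. In all 5 the MM peak lay inside the COT peak.

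Sites that joined outnumbered those that split. MM peaks that overlapped 2 or more COT peaks numbered 650 (1.01% of the MM list). COT peaks that overlapped 2 or more MM peaks numbered 216 (0.417% of the COT list). The highest-scoring joined site, on chromosome 6 at 5033801 to 5035000, held place 28 of the MM list. It covered COT peaks of 550 bp (place 293) and 350 bp (place 11405), and at EM there were likewise 2 peaks there. On chromosome 8 an MM peak of 800 bp at 11911001 to 11911800 (place 63) covered COT peaks of 300 and 400 bp, and the EM peak there was a single one of 900 bp. On chromosome 12 an MM peak of 950 bp at 3353901 to 3354850 (place 94) covered 2 COT peaks of 350 bp. In the reverse direction, a COT peak of 1200 bp on chromosome 13 at 44101701 to 44102900 (place 63) overlapped MM peaks of 900 bp (place 270) and 100 bp (place 55994). Split sites on chromosome 6 (COT 3031251 to 3032150, place 156) and chromosome 16 (COT 28811851 to 28812800, place 397) likewise overlapped 1 MM peak of 700 bp and 1 of 200 or 250 bp. In each of these split sites the wide MM peak ended beyond the COT peak. The highest-scoring split sites thus kept 1 wide peak, with a small low-scoring one beside it.

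Gained sites had a COT peak within 1 kb less often than shared MM sites had another one, while at the shortest gaps the order was the other way. Of the gained peaks, 5958 (25.2%, 24.7 to 25.8) had a COT peak within 1 kb, measured from edge to edge. Of the shared MM peaks, 29.6% (29.15 to 30.04) had a COT peak within 1 kb besides the one they overlapped. The median gap was 2850 bp for gained and 2250 bp for shared peaks, and 18.4% of gained against 14.6% of shared peaks lay more than 10 kb from such a COT peak. The order was the same within 200 bp (4.25 against 4.49%), 500 bp (12.95 against 15.07%) and 2 kb (41.0 against 47.1%). The order was reversed within 100 bp, at 1.95% of gained against 1.42% of shared peaks, and for touching edges, at 0.707 against 0.151%. At such gaps the definition lowers the shared value, since the other COT peak must also lie clear of the overlapped one. The shares within 1 kb were 24.4 against 29.4% at equal list length and 13.5 against 17.3% with the higher-scoring 50% of each list.

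The lower share of gained peaks within 1 kb of COT peaks was found at each level of score and width. In the highest decile of the MM order 21.9% of gained and 30.2% of shared peaks had a COT neighbour, and in the lowest decile 26.7 and 32.0%, with gained below shared in all 10 deciles. Among peaks of 250 to 300 bp the shares were 25.4 and 28.3%, and among those of 550 to 700 bp 20.4 and 31.3%. Chromosome 10 was the exception among the chromosomes, with 28.6% of gained and 28.3% of shared peaks, and on all others the gained share was lower.

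Most COT peaks beside gained sites were themselves shared, as in the whole list, but less so at the shortest gaps. The nearest COT peak of the 5958 was itself shared in 78.2%, against 79.0% of all COT peaks. Of the 1004 gained peaks within 200 bp, however, 389 had a lost COT peak as the nearest. A COT peak that close counts as shared only if a further MM peak, clear of the gained one, overlaps it. These 5958 sites fell beside 5686 different COT peaks, 11.0% of the list, whose median width was 250 bp, against 300 bp for the whole list, and whose median place was at 52.4% of the COT order, and 254 of those COT peaks were the nearest neighbour of 2 gained sites. Per 50 bp of gap, gained peaks numbered 201 at gaps of 0 to 200 bp, 342 at 250 to 500 bp, 290 at 550 to 1000 bp, 186 between 1 and 2 kb, 94.7 between 2 and 5 kb and 39.2 between 5 and 10 kb.

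Gained sites near COT peaks and far from them were much alike in the other readouts. Within 1 kb 50.2% had an EM and 39.1% a peptide peak, and beyond 10 kb 46.9 and 37.4%. The median width was 250 bp in both. The far sites lay more often in chromosome centres (25 to 75% of the length), at 38.8%, against 19.8% of the near ones. The centres held only 21.45% of all COT peaks, so choosing sites far from COT peaks favours them. Lost COT peaks showed the same, with 41.3% in the centres beyond 10 kb from an MM peak and 20.8% within 1 kb. Among gained sites near COT peaks, the highest-scoring after the one on chromosome 14 were on chromosomes 15 and 3. The one on chromosome 15, at 50916501 to 50917000 (place 1235), lay 200 bp from a shared COT peak of 200 bp. The one on chromosome 3, at 44332501 to 44333050 (place 1468), lay 750 bp from a shared COT peak of 100 bp.

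Lost sites were about as often within 1 kb of MM peaks as shared COT sites were, and more often within 500 bp. Within 1 kb the shares were 34.7% (33.85 to 35.65) of lost and 33.8% (33.4 to 34.3) of shared COT peaks, and at equal list length 28.8 and 28.2%. Within 500 bp they were 19.8% of lost and 17.0% of shared peaks, and within 200 bp 8.43 and 4.61%. Touching edges, a gap of 0 bp, were found for 183 lost peaks (1.68%) and 44 shared ones (0.107%). From the other side 167 gained peaks touched a COT peak, and for 145 of them the COT peak was itself lost. The definitions favour few touching edges for shared peaks, since peaks of 1 list do not overlap and a shared peak already has a partner. Such touching pairs count as 1 lost and 1 gained site under the rule of 1 bp overlap.

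**Figure D3:**
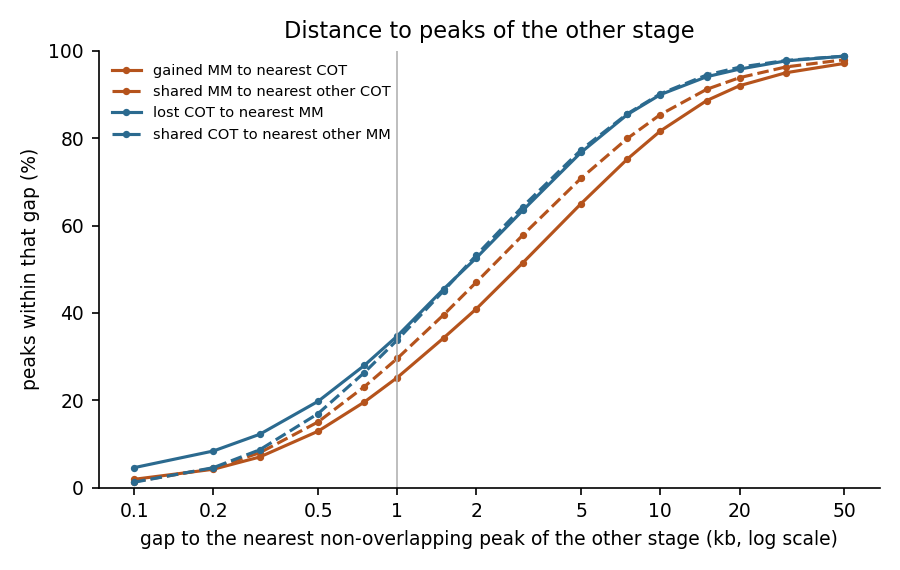
Cumulative share of peaks (%) by the gap to the nearest non-overlapping peak of the other stage (kb, log scale) for gained and shared MM peaks and for lost and shared COT peaks; the vertical line marks 1 kb. The gained curve starts above that of shared MM peaks (1.95 against 1.42% at 100 bp) and is close to it at 200 bp. At wider gaps the gained curve lies below (25.2 against 29.6% at 1 kb). The lost curve lies above that of shared COT peaks at 500 bp (19.8 against 17.0%), and the 2 nearly coincide from 1 kb on.

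The EM lists show how many gained sites had a peak before MM and how many lost sites still had one after COT. Of the gained peaks, 49.3% were overlapped by an EM peak and 38.7% by a peptide peak, against 89.2 and 84.6% of shared MM peaks. Of the lost peaks, 25.2% were overlapped at EM and 20.2% by a peptide peak, against 88.8 and 84.3% of shared COT peaks. At equal list length the shares were 60.5 and 47.8% for gained and 34.4 and 28.8% for lost peaks. The whole MM and COT lists were overlapped by EM to similar extents, 74.5 and 75.4%.

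Presence at EM followed the score in both classes and was higher for gained sites at the same decile. In the highest decile of the MM order 223 of 228 gained peaks (97.8%) had an EM peak, in the fifth 69.2% and in the lowest 24.9%. Lost peaks had one in 5 of 6 cases in the highest decile of the COT order, in 39.1% in the fifth and in 15.3% in the lowest. Deciles of different lists do not match in score or width, and the median lost peak was narrower.

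Sorted by both antibodies, 6794 gained sites (28.8%) had a peak in both EM lists, 20.6% in the anti-recombinant list alone, 9.91% in the peptide list alone and 40.8% in neither. For lost sites these shares were 9.60, 15.6, 10.6 and 64.2%. Gained sites in both EM lists had a median width of 350 bp and those in neither 200 bp. Of the 652 gained peaks wider than 500 bp, 527 had a peak in both EM lists and 38 in neither. Of the 91 such lost peaks, 39 had both and 33 neither. The EM peaks over gained sites stood at a median of 66.1% of the EM order and those over lost sites at 77.4%, against 35.81 and 35.55% for those over shared MM and COT sites.

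**Figure D4:**
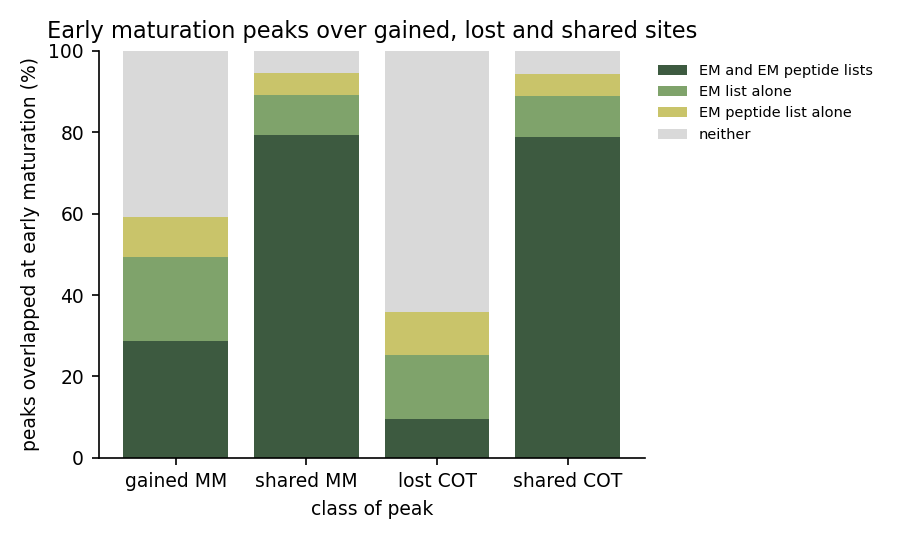
Share of gained MM, shared MM, lost COT and shared COT peaks (%) that were overlapped by peaks of both early maturation lists, of the anti-recombinant list alone, of the peptide list alone or of neither. Neither list covered 40.8% of gained and 64.2% of lost sites, against 5.52% of shared MM and 5.72% of shared COT sites.

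The shares of gained, lost, widened and narrowed sites varied little along the genome. Gained sites made up 36.9 ± 1.68% of the MM peaks of a chromosome (mean ± SD, n = 20 chromosomes), from 34.0% on chromosome 17 to 40.2% on chromosome 18. Lost sites made up 20.9 ± 0.975%, from 18.8% on chromosome 12 to 22.5% on chromosome 7. Pairs wider at MM made up 65.01 ± 1.05% and narrower ones 20.7 ± 0.903%. Chromosome 18, with the highest gained share, also had the smallest share of them beside COT peaks, 20.2%, and chromosome 17 the largest, 29.2%. Shared MM peaks varied in a like way. Their share beside another COT peak was also lowest on chromosome 18, at 26.7%, and was 32.0% on chromosome 17, near the highest (32.1%, chromosome 11). The number of MM peaks per COT peak ran from 1.18 on chromosome 13 to 1.29 on chromosome 18.

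**Figure D5:**
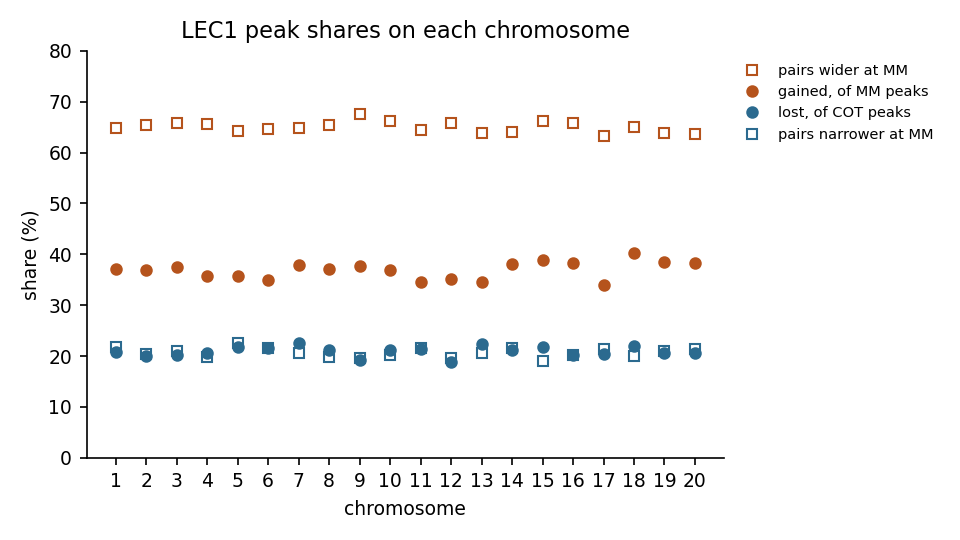
Shares (%) on each of the 20 chromosomes of pairs wider at MM, gained MM peaks, lost COT peaks and pairs narrower at MM. Points of each kind lie in a narrow band, with gained sites between 34.0 and 40.2% and lost sites between 18.8 and 22.5%.

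Gained and lost sites had nearly the same place along the chromosome as shared ones. The centres held 22.8% of gained and 21.4% of shared MM peaks, and 21.8% of lost and 21.4% of shared COT peaks. Of 7454 windows of 100 kb with a peak, 6334 held a gained and 4678 a lost site, and 4239 held both. A total of 486 windows had gained sites and no COT peak, with 707 gained sites in them. The window with the most gained sites, 17, was on chromosome 19 at 45500001 to 45600000, where 15 COT peaks stood against 28 MM peaks. It was followed by chromosome 10 at 47000001 to 47100000 (16 gained, 18 COT and 30 MM peaks) and chromosome 11 at 9300001 to 9400000 (16 gained, 31 COT and 41 MM peaks). The most lost sites, 11, were on chromosome 11 at 2200001 to 2300000, with 22 COT and 18 MM peaks. The next windows, with 10 lost sites each, were on chromosome 1 at 2100001 to 2200000 (21 COT and 16 MM peaks) and chromosome 7 at 1300001 to 1400000 (17 COT and 10 MM peaks).

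The highest-scoring peaks of the lists overlapped in part, which does not show a change, since places in lists of different length are not comparable and no replicate gives a baseline. Of the first 100 COT peaks 11 were overlapped by one of the first 100 MM peaks, of the first 1000 it was 329, and of the first 10000 it was 6134 (61.3%). The 11 sites, chosen after their values were seen, lay on 10 chromosomes. On chromosome 16 the COT peak at 13050101 to 13051000 (900 bp) and the MM peak over it (1050 bp) both held place 2, with place 1785 in the EM and 2042 in the peptide list. On chromosome 4 the COT peak at 8125751 to 8126200 held place 17 and its MM peak place 5. Chromosome 13 had 2 of the sites. One, at 20574951 to 20575500 with the same start and end in both lists, held place 35 at COT, 16 at MM and 2 at EM, and the other, at 40820951 to 40821650 at COT, held place 58 at COT, 34 at MM and 5530 at EM. Of the 11 sites 9 were wider at MM, by 50 to 200 bp. The one on chromosome 5 (COT 31309701 to 31310500) was narrower, at 700 against 800 bp.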

How the data were processed

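The deposited files are 4 peak lists that hold the position, name and score of each peak. The score is the authors' own value in the deposited lists, and no source used here gives its meaning or scale. Per the submitters' processing notes, Bowtie 0.12.7 and SAMtools 0.1.19 were used. Peak caller, calling threshold, pooling of the 2 replicates and depth were not given in the sources used here. Peak names carry the build, Gmax275. The available gene table uses a different assembly, and no genome sequence of the build was used, so peaks are given by position, with no genes or sequences.

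Starts are multiples of 50 bp and ends lie 1 below one, so each end was read as the last base. Positions are printed 1-based. Overlaps, gaps and widths were computed with Python 3.11.15, numpy 2.4.6 and pandas 2.3.3, and exact binomial (Clopper-Pearson) intervals with scipy 1.17.1. The code was tested on simulated peak lists with known overlaps. Ties in score were ordered by chromosome and start. The last peak end stood for a chromosome's length. No statistical test was run. The rule and lists were chosen with earlier results of these data known. Named sites are the first by score or width change of each kind (5 for gained, lost, widened and narrowed, 3 for near, far, joined and split sites and for windows), unless said otherwise. Alternatives were reciprocal overlap of 50%, midpoints within 100 bp, equal list length, the higher-scoring 50% of each list, no scaffolds, ends as deposited, a width change of 100 bp and neighbours within 500 bp or 2 kb.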

Additional observations from a re-analysis of the deposited data

How the results depend on the processing

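The main shares were 36.8% gained, 21.0% lost, 65.0% widened, 20.7% narrowed, 25.2% of gained sites beside a COT peak and 34.7% of lost sites beside an MM peak. Each alternative below moved a share by more than its counting interval. Under reciprocal overlap the gained share was 46.8%, the lost share 34.2%, and the beside shares 41.2% of gained and 59.9% of lost sites, since overlapping peaks that fail the rule are then neighbours at gap 0. With midpoints within 100 bp 41.1% were gained and 27.1% lost. Equal list length gave 30.1% gained, 29.1% lost, 70.1% widened, 16.1% narrowed, and 24.4 and 28.8% beside. The higher-scoring 50% of each list gave 38.9% gained, 23.9% lost, 70.6% widened, 13.9% narrowed, and 13.5 and 20.05% beside. A change of at least 100 bp was outward in 48.1% and inward in 11.2% of pairs. Neighbours within 500 bp were found for 12.9% of gained and 19.8% of lost sites, and within 2 kb for 41.0 and 52.6%. Leaving out scaffolds or reading ends as deposited moved none of the shares run under them beyond its interval. Widened exceeded narrowed under every alternative run, but these are not independent checks. Cutting the MM list to equal length favours widened pairs, since 71.5% of pairs in the lowest MM decile were narrower at MM. The higher-scoring 50% drops low-scoring peaks of both lists, and the limit of 100 bp uses the same pairs. Gained exceeded lost under each alternative too, but the longer MM list favours this order, and halving both lists keeps the difference in length. At equal list length the 2 shares were close, and lost exceeded gained on 4 of 20 chromosomes.

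No paired analysis was possible because each stage has 1 list for both replicates, and for the same reason leaving out a replicate was not run. Depth is unknown, so a site missing from a list is not shown to be unbound, and the lower-scoring peaks, where most gained and lost sites lie, are the least certain.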
